A study of Homo sapiens with 6 samples.

Results

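The mRNAs described here encode enzymes and regulators of cholesterol and fatty acid synthesis. They were 31 named genes, chosen because SREBP transcription factors control the pathway, and all 31 were found by gene name in both deposited tables of 58302 genes each. RNA immunoprecipitation sequencing (RIP-seq) was done in HepG2, a human hepatocellular carcinoma line, to ask which RNAs come down with the poly(A)-binding proteins PABPC1 and PABPC4. Per the labels, 2 libraries used an antibody against PABPC1 in cells overexpressing PABPC1, 2 used an antibody against PABPC4 in cells overexpressing PABPC4, and rabbit IgG controls were 1 library from each of these cell populations. Each RIP was therefore made from cells with its own protein raised, no group used here had unmodified HepG2 cells, and both comparisons with IgG used the same pooled pair of IgG libraries. No library of unprecipitated RNA was used here, so the amount of an mRNA in the cells and its recovery by an antibody cannot be told apart.

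SREBPs are membrane-bound transcription factors of the endoplasmic reticulum. When sterols are low, SREBPs are carried to the Golgi and cut, and the released part enters the nucleus and switches on genes of sterol and fatty acid synthesis, many of them together with the CCAAT-binding factor NF-Y. When sterols are plentiful, the INSIG proteins hold the SREBPs back. In liver this control sets how much cholesterol and fat is made for membranes, bile acids and lipoproteins. PABPC1 and PABPC4 are cytoplasmic proteins that coat the poly(A) tails of mRNAs.

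Promoter stretches are shown because the genes were chosen as targets of SREBPs; the RIP reads do not bear on promoters, and a match of letters is not a shown binding site. RefSeq promoter windows (GRCh38.p14, 250 bases before each gene's start, both strands) were matched for 27 of the 31 genes. The letters TCACNCCAC, a sterol regulatory element, were in the window of 1 of these 27 genes, SREBF2, or 3.70%, against 1.09% of 27305 genes with such a window. The letters CCAAT, the NF-Y motif, were in 21 of the 27, or 77.8%, against 37.0% of all genes. The stretches below show the element and the nearby CCAAT of SREBF2, which codes for a SREBP itself, and 2 CCAAT stretches of SCD, the mRNA with the highest level per length in these libraries. All are read on the plus strand with the motif in capitals, at chr22:41832962-41832991, chr22:41832989-41833018, chr10:100346994-100347023 and chr10:100347037-100347066 in this order, and the SREBF2 CCAAT is on the opposite strand, so it reads ATTGG.
SREBF2 sterol element: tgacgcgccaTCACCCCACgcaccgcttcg
SREBF2 CCAAT: tcgctcgcccATTGGctgagatgagcctgg
SCD distal CCAAT: ttgcgccgagCCAATggcaacggcaggacg
SCD proximal CCAAT: ttcccttcggCCAATgacgagccggagttt
The SCD motifs begin 229 and 186 bases before the gene's start, and those of SREBF2 begin 133 and 106 bases before it.

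The libraries were shallow. By totals worked out from the deposited values, the PABPC1 pair held 289217 and 277552 reads, the PABPC4 pair 850190 and 841327, and the IgG pair 133030 and 94235. Within each antibody the larger library is called A and the other B. Reads per library were recovered for 17838 of 22607 genes with a read, and nuclear-encoded totals count only these genes. They held 53.1% and 58.6% of PABPC1 reads, 78.4% and 77.0% of PABPC4 reads and 38.5% and 40.5% of IgG reads. The rest was mitochondrially encoded RNA and all reads not recovered, some of them nuclear-encoded. An mRNA that kept its place among the recovered nuclear-encoded reads has a fold of 1.42 for PABPC1 over IgG and 1.98 for PABPC4 over IgG on library totals. All 6 hepatocyte-lineage markers, among them ALB, had reads in every antibody. Blood markers (HBA1, HBA2, PTPRC and LYZ) summed to 1270.4 to 1337 per 1000000 reads in IgG, 470.2 to 573 in PABPC1 and 275 to 355 in PABPC4; 3 of the 4 were lower in both RIPs by the authors' deposited tables, and LYZ passed in neither. Fibroblast markers (COL1A1, COL1A2 and COL6A2) summed to 159 to 195 per 1000000 reads in IgG, 36.0 to 44.9 in PABPC1 and 13.1 to 20 in PABPC4, with 2 and 3 of the 3 lower. The IgG libraries came from the same cell populations as the RIPs. Where the blood and fibroblast RNAs came from was not tested, nor was their part in the comparisons with IgG below. Of the 2 adipocyte markers ADIPOQ was at 0 in all libraries; PLIN1 had no p in the PABPC1 table and a fold of 62.0 with an adjusted p of 1.00 for PABPC4 in the authors' deposited table, from reads that could not be split by library.

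Levels per length spanned a wide range, led by SCD and ACSL4. Levels are given as RPKM, reads scaled to the library total and to exon length. Over the 31 genes the median level was 3.82 RPKM in PABPC1, 6.15 in PABPC4 and 3.66 in IgG, beside 3.14, 3.53 and 3.35 over all genes with a read. SCD, the desaturase that makes monounsaturated fatty acids, ranked first in all 3 antibodies and ACSL4, which joins long polyunsaturated fatty acids to coenzyme A, ranked second in all 3. SCD alone held 38.0% of the reads of the 31 genes in PABPC1 (exact 95% interval 35.4% to 40.6%), 32.9% in PABPC4 (31.5% to 34.3%) and 31.2% in IgG (26.2% to 36.5%). All intervals given here cover counting error only. At the other end CYP51A1, the sterol demethylase, had 0 reads in PABPC1 (which allows up to 3 of the 566769), 3 in PABPC4 and 1 in IgG, and INSIG1, an INSIG protein, had 2, 1 and 1.

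**Figure D1:**
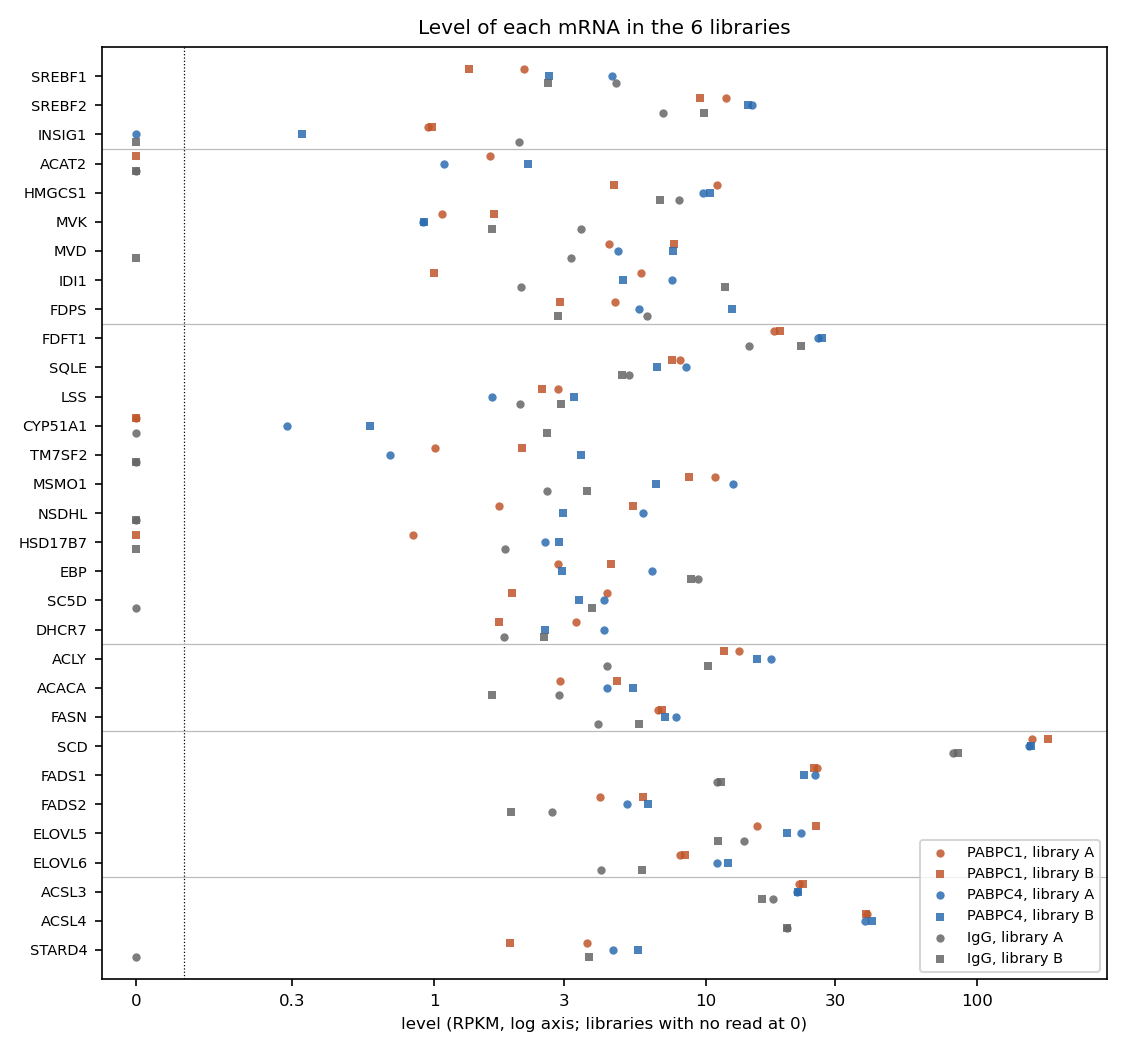
Level of each of the 31 mRNAs in RPKM on a log axis, with circles for library A and squares for library B of each antibody and thin lines between the role groups; a library with no read is drawn at 0. SCD stands apart at 81.3 to 182 RPKM, and the IgG points of its row lie left of all 4 RIP points.

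Library pairs of the same antibody differed about as much as counting noise gives. With at least 20 reads over the pair, the chi-square per gene between libraries A and B was 0.821 over 13 of these genes in PABPC1, 1.41 over 23 in PABPC4 and 0.192 over 5 in IgG, beside 1.07, 1.17 and 1.09 over all genes. The genes furthest apart were HMGCS1, an early enzyme of the mevalonate route, with 15 and 6 reads in PABPC1, and FDPS, which makes farnesyl diphosphate, with 18 and 39 reads in PABPC4. For the PABPC1 and PABPC4 pairs, nothing in the labels says that the libraries came from separate cultures. A p-value across such libraries may therefore reflect technical spread alone. Per the labels, the IgG libraries came from different cell populations, so the IgG SDs cannot separate cell population from technical spread. Leaving out an IgG library likewise leaves out the control of a cell population.

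Against IgG, SCD and FADS1 were higher in both RIPs and ACSL4 was higher in the PABPC4 RIP. In the authors' deposited table for PABPC1, 2 of the 31 genes were higher at a deposited adjusted p under 0.05 and 0 were lower, while 1.34% of all 17565 genes with a p were higher and 0.194% lower. For PABPC4 the authors' deposited table has 3 of the 31 higher and 0 lower, while of all 21455 genes 5.54% were higher and 0.900% lower. Both backgrounds include genes with few reads. Among genes with at least 10 recovered reads in RIP and IgG together, chi-square called SCD, FADS1 and ACSL4 higher in both comparisons. There 314 of 7232 genes were higher and 34 lower in PABPC1, and 1401 of 11005 were higher and 120 lower in PABPC4. For genes with recovered reads, the deposited p is that of a chi-square test on summed reads, so it leaves out the spread between libraries. These calls were made on library totals, of which the recovered nuclear-encoded reads held a part that differed between the antibodies.

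SCD (ENSG00000099194) had 246 and 271 reads in PABPC1, 706 and 712 in PABPC4, and 58 and 43 in IgG. That is a mean of 170.4 RPKM ± 16.6 (SD, n = 2) in PABPC1, 156 ± 2.09 in PABPC4 and 83.2 ± 2.68 in IgG, and neither RIP overlapped IgG. On library totals, 81.8% of all genes with at least 20 reads lay above IgG in PABPC1 and 88.4% in PABPC4. The share that did so without overlap was not counted, which also limits the overlaps given below for FADS1 and ACSL4. The authors' deposited table gives SCD a fold of 2.05 for PABPC1 over IgG, with an adjusted p of 1.3e-08 by chi-square. For PABPC4 the authors' deposited table gives SCD a fold of 1.88 and an adjusted p of 4.3e-08. The exact intervals of the summed ratios were 1.66 to 2.57 and 1.54 to 2.33, so the PABPC1 interval lay above the fold of 1.42 of the nuclear-encoded share and the PABPC4 interval held its 1.98. Per 100000 nuclear-encoded reads, SCD had 160.1 and 166 in PABPC1, 106 and 109.9 in PABPC4, and 113 and 113 in IgG. On that scale the PABPC1 libraries were the high ones, and the ratio of PABPC4 to IgG turned from above 1 to 0.956, with a chi-square adjusted p of 1.00. For PABPC1 the ratio was 1.45 on nuclear-encoded totals with a chi-square adjusted p of 0.101.

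FADS1 (ENSG00000149485), the desaturase of polyunsaturated fatty acids that makes arachidonic acid, had 76 and 71 reads in PABPC1, 220 and 199 in PABPC4, and 15 and 11 in IgG. In RPKM the means were 25.3 ± 0.482 (SD, n = 2), 24.2 ± 1.54 and 11.2 ± 0.275, and neither RIP overlapped IgG. The authors' deposited table gives FADS1 a fold of 2.26 in PABPC1, with an adjusted p of 0.0115 by chi-square. For PABPC4 the authors' deposited table gives FADS1 a fold of 2.16 with an adjusted p of 0.00322. Per 100000 nuclear-encoded reads the libraries held 49.5 and 43.6 in PABPC1, 33.0 and 30.7 in PABPC4, and 29.3 and 28.8 in IgG, with all 4 RIP libraries above IgG. The FADS1 ratios on nuclear-encoded totals were 1.60 and 1.10, with chi-square adjusted p of 0.932 and 1.00, and without IgG library A or without IgG library B neither FADS1 call held (chi-square adjusted p 0.756 and 0.183 for PABPC1, 0.276 and 0.0572 for PABPC4).

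ACSL4 (ENSG00000068366) had 73 and 69 reads in PABPC1, 211 and 220 in PABPC4, and 17 and 12 in IgG. In RPKM the means were 39.0 ± 0.419 (SD, n = 2), 39.7 ± 1.47 and 19.9 ± 0.0495, so both RIPs lay above IgG and overlapped each other. The authors' deposited table gives ACSL4 a fold of 2.0 in PABPC4, with an adjusted p of 0.00717 by chi-square. In PABPC1 the authors' deposited table gives ACSL4 a fold of 1.96 with an adjusted p of 0.0613, which misses the threshold. Fisher's exact test on the same reads gave an adjusted p of 0.0293, and chi-square over genes with at least 10 reads gave 0.0259. On nuclear-encoded totals the PABPC4 ratio was 1.02 with a chi-square adjusted p of 1.00, and without IgG library A or B the chi-square adjusted p for PABPC4 was 0.335 and 0.0974.

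These calls depended on the scaling. On nuclear-encoded totals a chi-square test called 0 of the 31 in either comparison. Of 17327 genes with recovered reads, 0.139% were higher and 0.462% lower in PABPC1, and of 17160 in PABPC4, 0.670% and 2.77% were. Median-of-ratios scaling centres on the median of the 6576 genes with a read in every library, which leaves out genes with no read in a shallow IgG library. On that scaling the chi-square test called only SCD, in PABPC1, where 0.208% of these genes were higher and 0.294% lower. In PABPC4 it called 0, where 1.01% and 2.39% were. With limma voom (a test that takes in the spread between libraries) on library totals, SCD and FADS1 stayed higher in PABPC1 and SCD, FADS1 and ACSL4 stayed higher in PABPC4, where 4.52% and 28.8% of 7963 genes were called higher and 0.377% and 0.628% lower. With voom on median-of-ratios scaling, 0 of the 22 genes tested were called in either comparison, where 0.527% and 2.36% of all genes were called higher and 0.427% and 1.63% lower. At an unadjusted voom p under 0.05, SCD and FADS1 were higher and SREBF1 lower in PABPC1, and 0 passed in PABPC4. The share of all genes under that unadjusted p was not counted. For SCD in PABPC1 that voom fit gave a log2 difference of 0.64 (SE 0.17) and an adjusted p of 0.0567, and a chi-square test on the same scaling gave a ratio of 1.57 and an adjusted p of 0.00916.

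**Figure D2:**
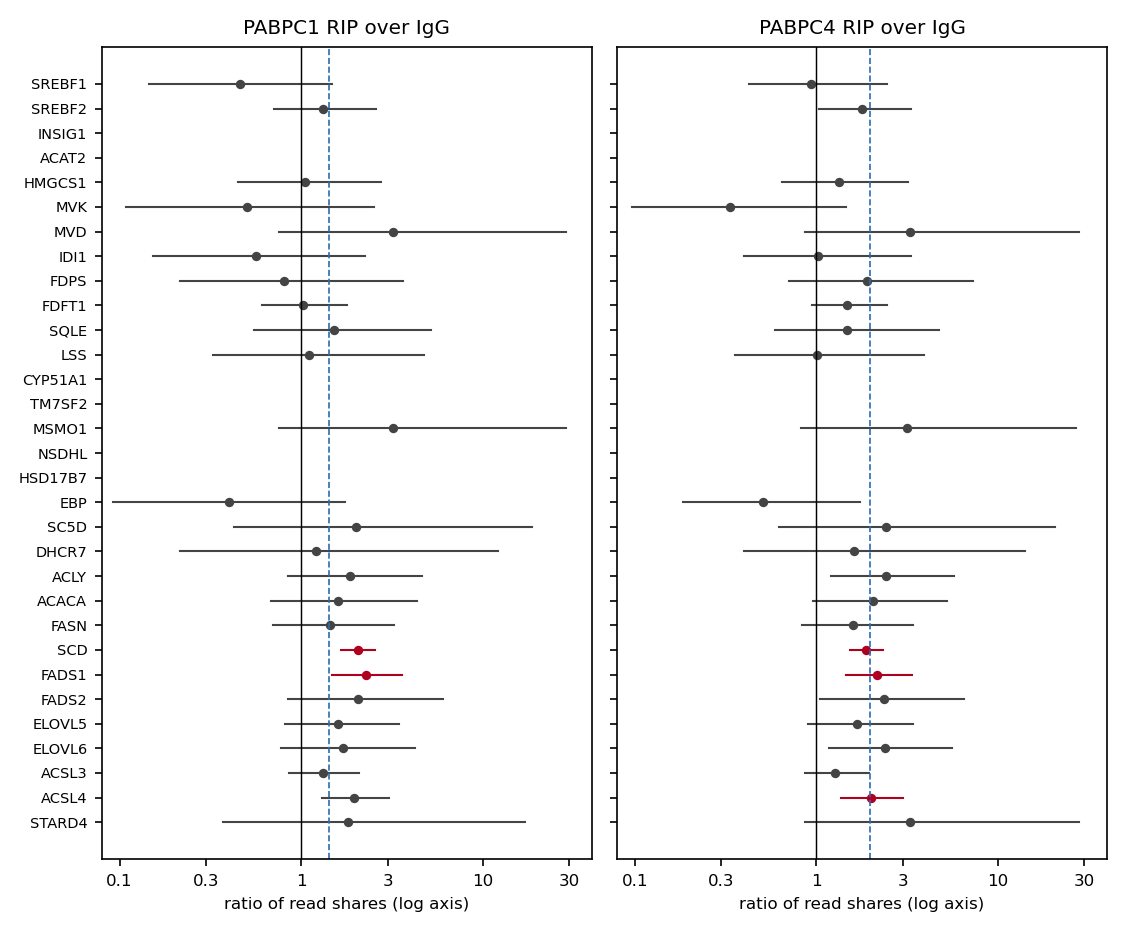
Ratio of read shares, RIP over IgG on library totals, with exact 95% intervals on a log axis, for the 25 genes with at least 2 reads on each side; red marks genes called higher in the authors' deposited tables, the solid line is 1 and the dashed line the fold of the nuclear-encoded share, 1.42 for PABPC1 and 1.98 for PABPC4. Most intervals cross both lines, and those of SCD and FADS1 in PABPC1 lie right of both.

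For most of these genes the IgG depth was too low to place the mRNA. In IgG, 24 of the 31 genes had at most 10 reads and 3 had none. For PABPC1 the interval of the ratio held both 1 and 1.42 in 28 of 31 genes, held only 1.42 in 1 (ACSL4) and held neither in 2 (SCD and FADS1). For PABPC4 the interval held both 1 and 1.98 in 21 genes and only 1.98 in 7, namely SREBF2, ACLY, SCD, FADS1, FADS2, ELOVL6 and ACSL4. It held only 1 in 3 genes, which were MVK, EBP and ACSL3. A difference from IgG was not detectable at this depth for the rest. The genes with at least 20 reads in RIP and IgG together had a median log2 ratio of 0.68 in PABPC1 (14 genes) and 0.92 in PABPC4 (25 genes), beside 0.57 and 0.95 over all genes of that depth, and on nuclear-encoded totals 0.18 and -0.07 beside 0.07 and -0.04. The PABPC4 median was 0.57 without IgG library A. For medians of summed reads, here and between the antibodies, a sum of 0 reads was set to 3, which limits the ratio of a gene with no IgG read.

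The regulators were not called against IgG, and SREBF1 and SREBF2 were not called between the antibodies. INSIG1 had too few reads for the main test between them. With no filter on low reads voom called it lower, together with SCD and FADS1, where 1666 of 17838 genes were lower and 217 higher. The exact interval of its PABPC4 to PABPC1 ratio on library totals was 0.00284 to 3.22, which held 1. SREBF1, which codes for the SREBP best known for fatty acid genes, had 5 and 3 reads in PABPC1, 31 and 18 in PABPC4, and 5 and 2 in IgG. SREBF2, whose product is best known for sterol genes, had 26 and 20 reads in PABPC1, 95 and 91 in PABPC4, and 7 and 7 in IgG. INSIG1 had 1 and 1 reads in PABPC1, 0 and 1 in PABPC4, and 1 and 0 in IgG. The authors' deposited tables give SREBF1 a fold of 0.477 for PABPC1 and 0.982 for PABPC4, with an adjusted p of 1.00 in both by chi-square. For SREBF2 the authors' deposited tables give 1.28 and 1.73, with adjusted p of 1.00 and 0.342. Per length, SREBF2 lay above SREBF1 in every antibody, at 10.7 ± 1.67, 14.5 ± 0.335 and 8.40 ± 2.03 RPKM (SD, n = 2) against 1.75 ± 0.571, 3.60 ± 1.33 and 3.66 ± 1.44 in PABPC1, PABPC4 and IgG.

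The 6 isoprenoid genes, which carry acetyl-CoA to farnesyl diphosphate, had 0 calls in either comparison with IgG. Their summed ratios in PABPC4 ran from 0.336 for MVK, mevalonate kinase with 5 and 5 PABPC4 reads, to 3.29 for MVD, the decarboxylase of the pathway with 19 and 30, and every interval held 1. ACAT2, which joins acetyl-CoA units, had no IgG read beside 12 PABPC4 reads, a depth at which the deposited fold of such a gene is set by the small value added to IgG. In IDI1, which isomerises isopentenyl diphosphate, the pairs differed widely, with 6 and 1 reads in PABPC1, 23 and 15 in PABPC4, and 1 and 4 in IgG.

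The 11 sterol genes, from squalene to cholesterol, also had 0 calls. FDFT1, squalene synthase, was the most read of them with 27 and 27 reads in PABPC1, 115 and 117 in PABPC4, and 10 and 11 in IgG. Its summed ratios to IgG were 1.03 (0.613 to 1.80) and 1.48 (0.948 to 2.44). SQLE, the squalene epoxidase that is a control point of the pathway, had ratios of 1.52 (0.550 to 5.22) and 1.48 (0.596 to 4.73). TM7SF2 and NSDHL had 0 IgG reads beside 12 and 15 PABPC4 reads, and EBP, the sterol isomerase, had the ratio furthest below 1 of this group with at least 5 reads on each side, 0.401 (0.0923 to 1.74) in PABPC1. HSD17B7, a sterol ketoreductase, had 1, 19 and 1 reads in PABPC1, PABPC4 and IgG. Its copy HSD17B7P2 had 3, 24 and 0, and how the counting treated near-identical copies is not stated in the labels, so HSD17B7 is uncertain. The SCD copy SCDP1 had 3, 15 and 0 reads, few beside the 517, 1418 and 101 of SCD.

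The 3 genes of fatty acid building all had summed ratios above 1, but none was called. ACLY, which makes cytosolic acetyl-CoA from citrate, had 20 and 17 reads in PABPC1, 77 and 68 in PABPC4, and 3 and 5 in IgG. Its ratios were 1.85 (0.850 to 4.61) and 2.44 (1.20 to 5.75), and the authors' deposited table gives the PABPC4 comparison an adjusted p of 0.168 by chi-square. ACACA, the acetyl-CoA carboxylase that commits carbon to fat, had ratios of 1.60 (0.685 to 4.35) and 2.05 (0.963 to 5.23). FASN, fatty acid synthase, had 1.44 (0.702 to 3.26) and 1.59 (0.832 to 3.39).

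Beside SCD and FADS1, the other desaturation and elongation genes had ratios to IgG of 1.60 to 2.07 in PABPC1 and 1.67 to 2.38 in PABPC4. These were FADS2, which puts the first new double bond into polyunsaturated chains, and the elongases ELOVL5 and ELOVL6, and none was called. Of the activation and transport genes, ACSL3, an acyl-CoA ligase of lipid droplets and the endoplasmic reticulum, had 46 and 46 reads in PABPC1, 133 and 133 in PABPC4, and 17 and 11 in IgG. Its ratios were 1.32 (0.855 to 2.09) and 1.28 (0.863 to 1.96), and the PABPC4 interval ended below 1.98. STARD4, a carrier of cholesterol between membranes, had 9 PABPC1, 49 PABPC4 and 2 IgG reads and was not called.

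Between the antibodies, SCD and FADS1 were lower in the PABPC4 RIP than in the PABPC1 RIP relative to the median gene. Limma voom, with Benjamini-Hochberg adjustment over 7963 genes, tested 22 of the 31 and called 2 lower and 0 higher, where 2.06% of all genes were lower and 2.41% higher. The 9 others, INSIG1, ACAT2, MVK, CYP51A1, TM7SF2, NSDHL, HSD17B7, EBP and DHCR7, had too few reads to be tested. The log2 difference of SCD was -0.57 (SE 0.09) with an adjusted p of 3.4e-05, and that of FADS1 was -0.52 (SE 0.16) with an adjusted p of 0.0476. ACSL3 at -0.50 (SE 0.19, adjusted p = 0.136) and ACSL4 at -0.43 (SE 0.16, adjusted p = 0.123) did not pass. Both had an unadjusted p under 0.05 in voom (0.0116 and 0.00957), as 4 of the 22 did in all, each lower. The share of all genes under that unadjusted threshold was not counted, so the 4 have no background to be read against. Neither call held on library totals, where the voom log2 difference was -0.12 for SCD (adjusted p = 0.432) and -0.07 for FADS1 (adjusted p = 0.796) while the median over all genes was 0.45; there 0.666% of all genes were lower and 14.0% higher. Both calls held with voom on nuclear-encoded totals, where 2.37% of all genes were lower and 2.25% higher. With the same log2 differences, limma trend gave adjusted p of 0.114 for SCD and 0.573 for FADS1, with 19 of all 7963 genes lower, and a voom prior count of 1 gave FADS1 an adjusted p of 0.0612. Without PABPC1 library A the voom log2 difference was -0.60 for SCD and -0.44 for FADS1, and without PABPC1 library B it was -0.53 and -0.60. Neither call held in either fit, each with a lone PABPC1 library. ACSL4 was at -0.39 without PABPC4 library A and -0.46 without PABPC4 library B.

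The size of the difference depended on the totals. On library totals the PABPC4 to PABPC1 ratio of summed reads was 0.919 (0.830 to 1.02) for SCD, 0.955 (0.790 to 1.16) for FADS1, 0.969 (0.762 to 1.24) for ACSL3 and 1.02 (0.839 to 1.24) for ACSL4. On nuclear-encoded totals the ratios were 0.660 (0.597 to 0.732), 0.686 (0.567 to 0.834), 0.696 (0.547 to 0.892) and 0.731 (0.603 to 0.890). For these 4 mRNAs the intervals held 1 on library totals and lay below 1 on nuclear-encoded totals. Per 100000 nuclear-encoded reads ACSL4 had 47.5 and 42.4 in PABPC1, 31.7 and 34.0 in PABPC4, and 33.2 and 31.5 in IgG. ACSL3 had 29.9 and 28.3 in PABPC1, 20 and 20.5 in PABPC4, and 33.2 and 28.8 in IgG, so for both genes the PABPC4 libraries lay below PABPC1 and, for ACSL3, below IgG as well.

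Calls between the antibodies were frequent in both directions among deeply read genes. These genes were picked by their PABPC1 reads alone, a choice that favours differences below 0. The shares that follow are therefore no neutral background for SCD. Of 48 genes with at least 500 PABPC1 reads, voom called 21 lower (43.8%) and 11 higher, their median log2 difference was -0.11, and 33.3% had a log2 difference at or below that of SCD. Of 479 genes with at least 100 PABPC1 reads, 64 were called lower (13.4%) and 87 higher, the median was 0.01, and 10.4% lay at or below SCD; SCD, FADS1 and ACSL4 are the 3 of these lipid genes among them. The liver marker ALB, also deeply read, had a voom log2 difference of -0.32 (SE 0.09, adjusted p = 0.0208).

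**Figure D3:**
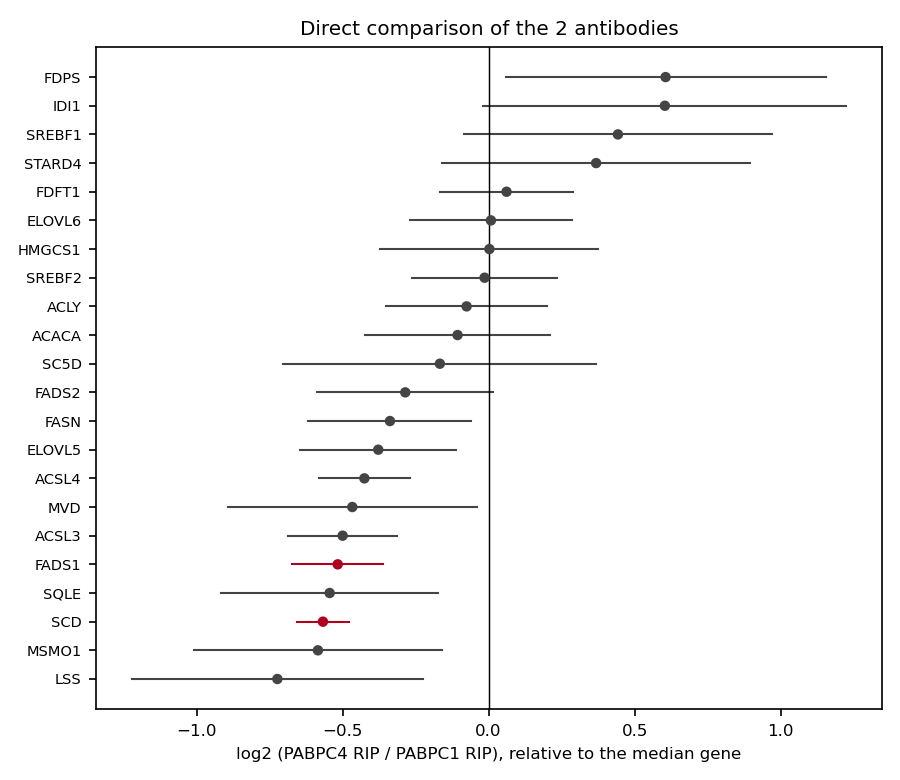
Log2 difference of PABPC4 RIP from PABPC1 RIP by limma voom, relative to the median gene, for the 22 genes tested, with bars of 1 standard error and red for an adjusted p under 0.05. SCD and FADS1 are the red points at -0.57 and -0.52, and 15 of the 22 points lie left of 0.

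Over the 22 genes tested, 15 lay below 0 (68.2%, beside 49.8% of all genes tested) and the median log2 difference by voom was -0.23, beside 0.00 over all genes. On library totals, the median log2 ratio of summed reads was 0.35 over the 25 members with at least 20 reads in both RIPs together, beside 0.45 over all genes of that depth. On nuclear-encoded totals, 7 of the 22 had both PABPC4 libraries below both PABPC1 libraries, namely SCD, FADS1, ACSL3, ACSL4, ELOVL5, FASN and SQLE, which is 31.8% against 23.3% of all genes tested. None had both PABPC4 libraries above, against 25.8% of all. On library totals 2 of the 22, SCD and ACSL3, were lower without overlap (5.78% of all genes) and 8 were higher (57.6% of all genes). The highest log2 differences were 0.61 for FDPS (SE 0.55) and 0.60 for IDI1 (SE 0.62), both from library pairs that differed widely, and neither passed. The lowest, -0.72 for LSS, which folds squalene epoxide into lanosterol, had an SE of 0.50 and did not pass.

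Reads were also summed over each group of genes and scaled to nuclear-encoded totals, as a description with no test between groups. The 5 desaturation and elongation genes held 244 per 100000 nuclear-encoded reads in PABPC1 (exact 95% interval 227 to 262), 169 in PABPC4 (162 to 176) and 170.0 in IgG (144 to 199). The activation and transport genes held 76.8 (67.4 to 87.1), 56.8 (52.8 to 61.0) and 66.0 (50.3 to 85.1). The sterol genes held 40.8 (34.0 to 48.4), 37.4 (34.2 to 40.9) and 48.1 (34.8 to 64.8), and the isoprenoid genes 18.6 (14.2 to 24.1), 18.7 (16.5 to 21.2) and 25.7 (16.3 to 38.6). Fatty acid building genes held 31.9 (26.0 to 38.8), 28.2 (25.4 to 31.2) and 28.0 (18.1 to 41.3), and the regulators 17.7 (13.4 to 23.0), 18.0 (15.7 to 20.4) and 24.6 (15.4 to 37.3). The intervals of PABPC1 and PABPC4 did not overlap in the desaturation and elongation group and in the activation and transport group, and those of the other 4 groups overlapped among all 3 antibodies. SCD and FADS1 gave 517 and 147 of the 773 PABPC1 reads of the desaturation and elongation group, ACSL3 and ACSL4 gave 92 and 142 of the 243 of the activation and transport group, and on library totals the PABPC4 to PABPC1 ratio of each of these 4 genes had an interval that held 1. ELOVL6 and STARD4, of the same groups, had voom log2 differences of 0.01 (SE 0.28) and 0.37 (SE 0.53). The sum over all 31 genes was 430.1 (408 to 454), 328 (318 to 338) and 362 (324 to 404), and without SCD it was 267 (249 to 285), 220.2 (212 to 228) and 249 (218 to 284).

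**Figure D4:**
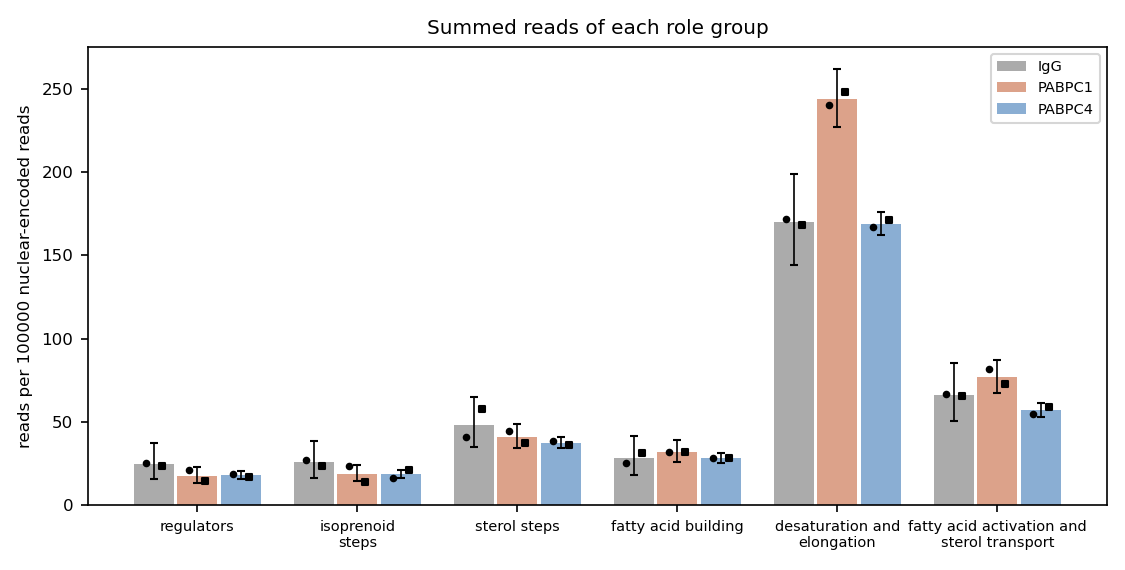
Summed reads of each role group per 100000 nuclear-encoded reads, with bars for the pooled libraries of each antibody, whiskers for exact 95% intervals that cover counting error only, and a circle and a square for libraries A and B. The desaturation and elongation bar of PABPC1, 244, stands above those of PABPC4 and IgG, 169 and 170.0, and in the sterol and isoprenoid groups the whiskers overlap.

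Exon length was close to that of other mRNAs. The members had a median of 5202 nt (1996 to 13008), beside 5402 nt over 9264 genes with at least 20 RIP reads. Spearman's correlation of length with the direct log2 difference, across genes that share libraries and are not independent replicates, was -0.04 over the 22 genes and 0.01 over all 7963.

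Other genes of lipid synthesis and its control, 42 in number, were set beside the same backgrounds. In the authors' deposited table for PABPC1, 0 of the 41 with a p were called, where 1.34% of all genes were higher and 0.194% lower. For PABPC4 the authors' deposited table has 2 of 40 higher and 1 lower, where 5.54% and 0.900% of all genes were. Voom called 1 of 27 lower and 0 higher between the antibodies, where 2.06% and 2.41% of all genes were. GPAM, the first acyltransferase of triglyceride synthesis, had 70 and 69 reads in PABPC1, 213 and 260 in PABPC4, and 19 and 9 in IgG, and the authors' deposited table gives it a PABPC4 fold of 2.35 with an adjusted p of 7.0e-04. ACSL1, a long-chain acyl-CoA ligase, went the other way with 11 and 13 reads in PABPC1, 15 and 15 in PABPC4, and 7 and 7 in IgG. The authors' deposited table gives ACSL1 a PABPC4 fold of 0.279 with an adjusted p of 0.00299, and it was the gene voom called between the antibodies, at a log2 difference of -1.71 (SE 0.38, adjusted p = 0.00453). For the 4 blood markers the authors' deposited table gives PABPC4 folds of 0.189 (HBA1), 0.128 (HBA2), 0.0974 (PTPRC) and 1.02 (LYZ), so 3 lay below 1 with ACSL1 and LYZ did not; the part of blood RNA in the ACSL1 values was not tested. SCD5, the other human stearoyl-CoA desaturase, was listed at 0 in all libraries.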

How the data were processed

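RIP-seq was measured in 6 HepG2 libraries, 2 per antibody. Only comparisons were read, from 2 tables in which the authors deposited a linear fold (ratio of RIP over IgG), a p-value and an adjusted p-value per gene, and 0 columns of single libraries. Per the labels' protocols, random-primed libraries were made from RNA bound to antibody on protein A/G beads. Tools listed in the submitters' processing notes are STAR 2.7.10a, Bowtie2 2.4.1 and featureCounts 2.0.1, with GRCh38; roles and strand setting are not given in the sources used here. For genes with recovered reads and a p below 1, the deposited p-values equal those of a Yates-corrected chi-square test on summed reads (natural log of recomputed over deposited p at most 1.5e-13 in size). Their deposited folds equal a fold of mean RPKM with 0.005 RPKM added to IgG. The recovery kept only reads that fitted the deposited values, so this match is no separate check. Genes without recovered reads were not checked.

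From the deposited p-values and folds, whole reads per library were recovered for 17838 of 22607 genes with a read, including all 31 members. Data were simulated only for genes already recovered. Of the sets of library reads that the recovery then gave, 16278 of 16278 were right, and genes not recovered were not covered by the simulation. Reads of MT-RNR1, MT-RNR2, MALAT1 and RN7SL2 were among those not recovered. Nuclear-encoded totals therefore leave out the last 2 and every other nuclear-encoded gene without recovered reads. The recovery does not give the replicate number of a library or which cell population an IgG library came from.

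Calls against IgG are those of the deposited tables at an adjusted p under 0.05. PABPC4 against PABPC1 was fitted with limma 3.58.1 (voom) in R 4.3.3 over 3 groups, genes reaching 10 reads in 2 or more libraries, and median-of-ratios scaling, with 3 residual and 32.6 prior degrees of freedom. Ratios carry exact conditional binomial intervals and shares exact Clopper-Pearson intervals. Python 3.11.15, scipy 1.17.1 and pandas 2.3.3 were used. Library values are given in full for genes called in any comparison and for the 3 regulators, and other genes are chosen as examples of their group. Other pathway genes are named for the smallest adjusted p, except 1 that is counted but not reported here, and SCD5 and the copies were named after their values were seen. The genes and lists were chosen with earlier results of these data known. Alternatives were other scalings, tests, filters, pseudocounts, thresholds and leaving out each library.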

Additional observations from a re-analysis of the deposited data

How the results depend on the processing

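Against IgG, the count of higher calls went from 2 to 0 in PABPC1 and from 3 to 0 in PABPC4 on nuclear-encoded totals, with SCD in PABPC4 turning to a ratio of 0.956; on median-of-ratios scaling the counts were 1 (SCD) and 0 by chi-square, and 0 and 0 by voom. An adjusted p under 0.01 left 1 call in PABPC1 (SCD). Apart from that threshold, the alternatives against IgG covered only genes with recovered reads. Their counts over all genes are therefore over fewer genes than the 17565 and 21455 of the deposited calls. Leaving out 1 library gave 1 to 2 higher calls in PABPC1 and 1 to 3 in PABPC4, with SCD alone left without IgG library A and without IgG library B, where the higher calls over all genes fell from 235 to 48 and 88 in PABPC1 and from 1188 to 402 and 687 in PABPC4. Between the antibodies the 2 lower calls (164 over all genes) became 0 on library totals (53 over all genes) and by limma trend (19). With no filter on low reads they became 3 (INSIG1 added), where 1666 of 17838 genes were lower and 217 higher. A voom prior count of 1 or an adjusted p under 0.01 left 1 (SCD). With 1 library left out, the log2 difference was -0.60 to -0.53 for SCD and -0.60 to -0.44 for FADS1. Neither call held without PABPC1 library A or B, in fits where the lone library is assumed to vary like the other groups. No alternative called a member lower against IgG. The members' median log2 ratio of summed reads in PABPC1 was 1.01 over genes with at least 100 reads. Those were SCD, FADS1, ACSL3 and ACSL4 alone, with no median over all genes of that depth beside them. On nuclear-encoded totals the members' median was 0.18, and with 1 library left out it was 0.58 to 0.80. In PABPC4 it was 0.79 with 0.5 reads added, 0.96 at 100 reads, -0.07 on nuclear-encoded totals and 0.57 to 0.93 with 1 library left out. Between the antibodies, where it was 0.35, it became 0.25, 0.18, -0.13 and 0.11 to 0.37 under the same changes. Voom on library totals against IgG, and nuclear-encoded totals for the medians, were chosen after seeing the data. The cause of these shifts was not tested. No paired analysis was possible because the recovered libraries carry no replicate number. Depth limits most members, since 24 of 31 had at most 10 IgG reads.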
